A study of Mus musculus with 27 samples.

Results

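The frontal cortex libraries of this study compare mice that lack an intergenic enhancer beside Igf2 with wild-type mice. They were chosen by tissue label, and they are 12 of the 27 libraries of the series, with 6 from Igf2enh-/- mice and 6 from wild-type mice, 3 females and 3 males in each genotype. All mice were adults of about 2.5 months on the 129S1 background. The Igf2enh-/- mice were homozygous for a deletion of 4920 bp between H19 and Igf2, made by gene targeting in embryonic stem cells. Their allele also carries 1 loxP site, a remnant of Cre removal of the drug-resistance cassette in a cross with Hprt-CRE mice, and the wild-type mice are not stated to carry it. The deletion is in the germ line, so every cell type of the tissue lacked the fragment. RNA was taken from whole pieces of frontal cortex, not from sorted cells. Adults were caged as littermates, and the labels tie no library to a litter, so p-values measure the spread between these libraries. A difference in a bulk library cannot tell fewer cells of a type apart from less RNA per cell.

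Igf2 encodes insulin-like growth factor 2, a secreted growth factor that is imprinted and transcribed from the paternal copy in most tissues, while the neighbouring H19 gene makes a non-coding RNA from the maternal copy. The 2 genes share enhancers, and an insulator between them controls which of them the enhancers reach. In brain, the meninges and the choroid plexus make much Igf2 from both copies. The tyrosine hydroxylase gene, Th, whose enzyme limits dopamine synthesis, lies beyond Igf2 on the same side.

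The edges of the deleted fragment, chr7:149796331-149801250 in the NCBIM37 build (mm9), are shown because every comparison rests on this allele. Capitals mark bases that the Igf2enh-/- allele lacks, and 30 bases are given on each side of an edge, on the plus strand.
left edge, chr7:149796301-149796360: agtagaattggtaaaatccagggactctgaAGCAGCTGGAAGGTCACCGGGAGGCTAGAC
right edge, chr7:149801221-149801280: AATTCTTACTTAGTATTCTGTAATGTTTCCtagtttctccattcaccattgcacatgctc
The genotyping primers each matched this chromosome once. The primer in capitals, which reads the wild-type allele, lies inside the fragment at chr7:149796510-149796530 on the minus strand, and the primers in lower case flank it at chr7:149796249-149796270 on the plus strand and chr7:149801499-149801520 on the minus strand.
IGKOwtU: TAGGGGTCCTGAAGACGTCAG
IGKOCreWTL: ttggtgtagcaccctgtaaccc
IGKOCrerecU: cggaatgtttgtgtggagagca

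Library totals ran from 24929068 to 30979248 counts. Xist and the Y-linked Ddx3y matched the sex label in all 12 libraries. The labelled tissue held its defining markers, with Slc17a7, the vesicular glutamate transporter of cortical projection neurons, between 1467 and 1664 CPM (counts scaled to the library total with TMM factors). Ttr, the defining choroid plexus marker, reached no more than 0.712 CPM. Library 1, from an Igf2enh-/- female, stood apart, with a mean correlation to the other libraries of 0.991 where the others had 0.995 to 0.996. Its myelin markers averaged 0.58 log2 units below the mean of the 12 libraries.

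Igf2 transcript was higher in Igf2enh-/- cortex, and few other genes passed the adjusted threshold in the test used. With genes at 1 CPM or more in every library tested by edgeR's quasi-likelihood test and sex in the model, 53 of 13936 genes had an adjusted p (Benjamini-Hochberg) under 0.05, which is 0.380% of them. Of these, 18 were higher (0.129%) and 35 lower (0.251%) in Igf2enh-/- mice. The higher genes lay between log2 fold changes of 0.13 and 0.77 and the lower genes between -1.24 and -0.15. Before adjustment, 1877 genes had p under 0.05 in this test, 13.5% of those tested. The likelihood ratio test of edgeR, which the paper used, called 232 genes, so the count of 53 also reflects the choice of test. The libraries of the genotypes did not overlap for 46 of the 53 genes, while over all genes tested 1.29% did not overlap, 0.610% of all being higher and 0.682% lower. All 53 had the same sign in females and males. They were called on these same libraries, so neither the shared sign nor the separation of the groups is independent support. The count rests on single libraries in both directions. It was 96 without library 1 and 84 without library 7, and 32 without library 11, 17 without 12, 15 without 8, 11 without 6, 10 without 4 or 9 and 8 without 10. Glo1, Rbm3, Ciart, Dbp, Lama4, Epha8, Hsph1 and ENSMUSG00000096768 were called whichever library was left out.

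**Figure D1:**
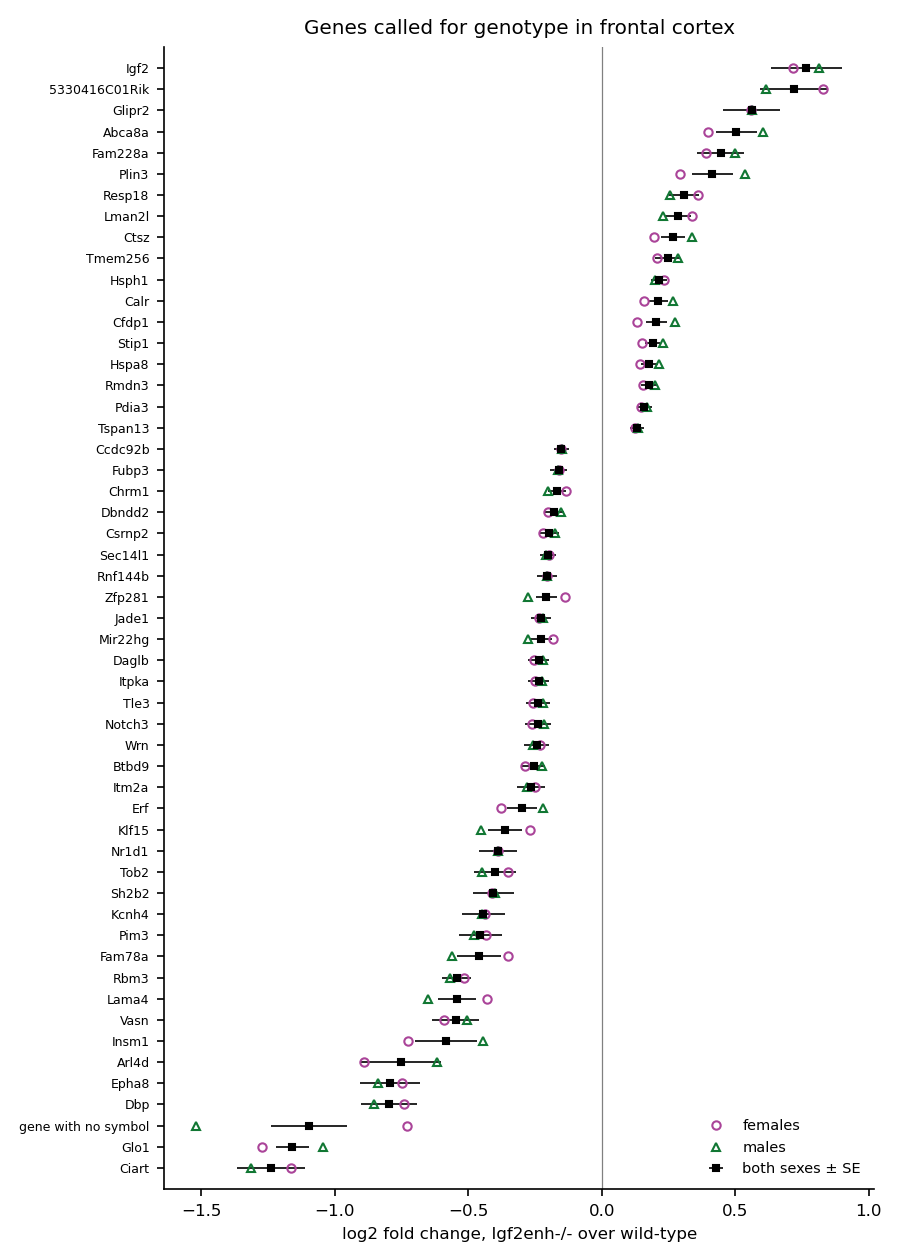
The log2 fold change (Igf2enh-/- over wild-type, x axis) of each of the 53 genes called for genotype, ordered by size (y axis), with squares and bars for both sexes together ± SE, circles for females and triangles for males. Ciart lies lowest at -1.24 and Igf2 highest at 0.77, and circles and triangles lie on the same side of 0 for every gene.

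Igf2 lies 35.4 kb from the deleted fragment, at chr7:149836673-149852721 on the minus strand of NCBIM37. Its level was 51.4, 70.7 and 106 CPM (lowest, median and highest) in wild-type and 87.4, 118 and 171 CPM in Igf2enh-/- libraries. The groups overlapped, because wild-type library 2 lay above Igf2enh-/- library 7. The means of 72.1 ± 18.8 and 122 ± 27.4 CPM (SD, n = 6) gave a log2 fold change of 0.77 (SE 0.134, adjusted p = 0.0285 in edgeR). Females and males gave 0.72 and 0.82. The call was lost without library 4, 6, 8, 9, 10, 11 or 12, and the log2 fold change lay between 0.68 and 0.87 whichever library was left out.

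Markers of meningeal fibroblasts, which themselves make Igf2, lay slightly higher in Igf2enh-/- libraries as a list. Of the 25 meningeal markers tested, 24 lay above 0 and none was called, with a median of 0.20 beside 0.00073 over all genes. Their summed level ran from 590 to 1257 CPM in wild-type and from 769 to 1040 CPM in Igf2enh-/- libraries, and no member was at 0 throughout. Slc47a1, a transporter, had the smallest p in the list, at 1.01 to 3.32 CPM in wild-type and 2.41 to 3.93 CPM in Igf2enh-/- libraries (log2 fold change 0.79, SE 0.250, adjusted p = 0.185). Once the mean of the list had been added to the model, Igf2 was still called by edgeR, at 0.54 on the log2 scale (adjusted p = 0.0269). That model called 8 of the 53 genes, 1 higher and 7 lower, so Igf2 was the only higher gene it kept. The change of Igf2 was nonetheless smaller than the 0.77 without the covariate. Some genes that lost the call kept their size, such as Stip1 (0.19 in both models) and Ctsz (0.27 in both). Others shrank, such as Hspa8 (0.18 to 0.15). A kept or lost call thus does not tell how far a change goes with the list. The 7 lower genes were Glo1, Ciart, Rbm3, Dbp, Lama4, Epha8 and ENSMUSG00000096768.

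Around the fragment, Igf2 was the only gene called of the 8 tested within 500 kb. Ctsd, a lysosomal protease gene, had a log2 fold change of 0.04 (SE 0.0318), and Cd81, a tetraspanin gene, had -0.05 (SE 0.0300). After Igf2 the largest changes were those of Lsp1, at -0.34 (SE 0.140, adjusted p = 0.313), and R74862, at 0.20 (SE 0.0765, adjusted p = 0.266 in edgeR). Lsp1 lies 116 kb and R74862 406 kb from the fragment. Ifitm10, Mrpl23 and Tssc4 had -0.11, 0.10 and 0.03. H19 reached no more than 0.0794 CPM in any library, which is under the 3 counts per library taken as the floor (0.0968 to 0.120 CPM). Ins2 was at 0 throughout. Th fell under the filter, with 0.677 to 1.14 CPM in wild-type libraries and a median of 0.951 CPM in Igf2enh-/- libraries, where library 9 stood at 5.27 CPM. With edgeR's own filter in place of the CPM minimum, Th had a log2 fold change of 0.89 (SE 0.427, adjusted p = 0.407).

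Elsewhere in the IGF system the receptors, binding proteins and adaptors showed no call. Of 16 members tested, Igf2 was the only one called, 10 lay above 0, and the median was 0.05. Htra1, a protease that cleaves IGF binding proteins, was at 95.3, 111 and 126 CPM in wild-type and 109, 135 and 153 CPM in Igf2enh-/- libraries (log2 fold change 0.27, SE 0.0792, adjusted p = 0.165). Igf1, the related growth factor, had a log2 fold change of 0.15 (adjusted p = 0.340), and Igfbp2, an abundant binding protein of the meninges, had 0.22 (adjusted p = 0.353).

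**Figure D2:**
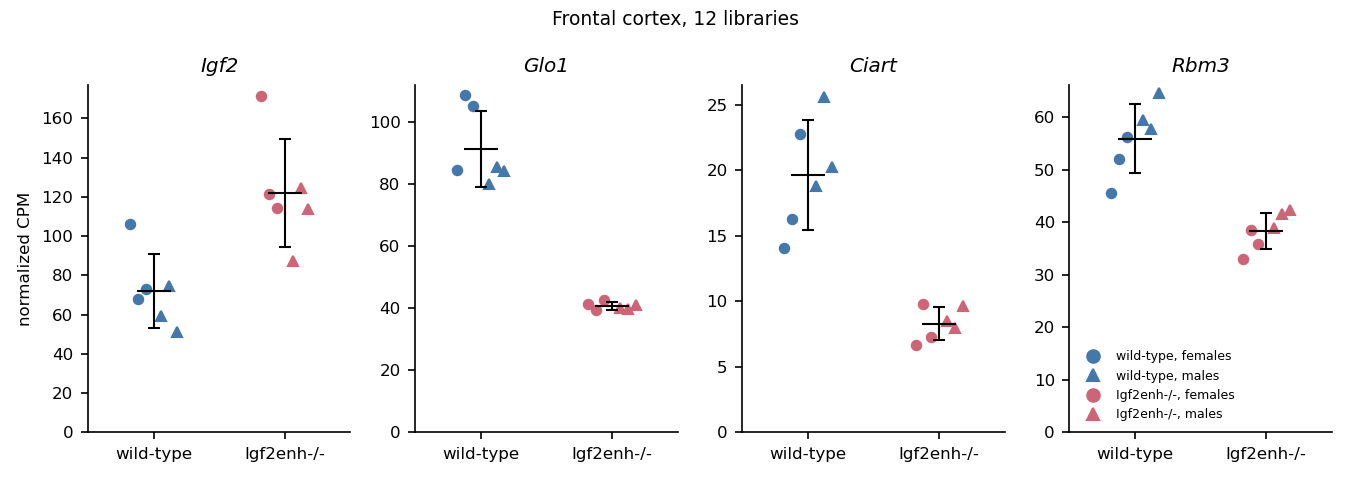
TMM-normalized CPM (y axis) of Igf2, Glo1, Ciart and Rbm3 in the 12 frontal cortex libraries by genotype (x axis), with circles for females, triangles for males, and bars for the mean ± SD of 6 libraries. Only Igf2 shows overlapping groups, and the 6 Igf2enh-/- libraries of Glo1 lie between 39.4 and 42.7.

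Glo1 had the smallest p of all genes. It encodes glyoxalase 1, which clears methylglyoxal, a reactive by-product of glycolysis, and it lies on another chromosome than the deletion (chr17:30729811-30749604, minus strand). Its level was 79.9, 84.9 and 108 CPM in wild-type and 39.4, 40.6 and 42.7 CPM in Igf2enh-/- libraries. The groups were far apart, and the wild-type libraries themselves fell into 4 between 79.9 and 85.5 CPM and 2 females at 105 and 108 CPM. The DNA sequence at Glo1 in these mice was not analysed here. The log2 fold change was -1.16 (SE 0.0614, adjusted p = 2.26e-07 in edgeR), a level 0.448 times that of wild-type.

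Its immediate neighbours were lower too. Btbd9, which encodes a BTB domain protein, lies 16.4 kb away and was at 93.0, 96.8 and 108 CPM in wild-type and 76.8, 82.4 and 90.3 CPM in Igf2enh-/- libraries, without overlap (log2 fold change -0.26, SE 0.0415, adjusted p = 0.0244). The call of Btbd9 was lost without library 4, 6, 9, 10 or 12 and with the meningeal covariate (adjusted p = 0.140). Dnah8, an axonemal dynein gene 11.7 kb to the other side, fell under the filter at 1.38 to 2.06 CPM in wild-type and 0.357 to 1.19 CPM in Igf2enh-/- libraries. With edgeR's own filter it was called, at a log2 fold change of -1.32 (SE 0.205, adjusted p = 0.0134). Farther out, Zfand3 had 0.10 (SE 0.0297, adjusted p = 0.173) and Abcg1 had -0.06 (SE 0.0379, adjusted p = 0.479). Glp1r and Umodl1, on the side of Dnah8, fell under the filter. With edgeR's own filter Glp1r, 289 kb out, had -1.45 (SE 0.460, adjusted p = 0.201). Its level was low, at 0.192 to 0.514 CPM in wild-type and 0 to 0.396 CPM in Igf2enh-/- libraries. Umodl1, 342 kb out, had 0.19 (SE 0.221, adjusted p = 0.778). Of the 12 methylglyoxal detoxification genes tested, Glo1 was the only one called. Hagh, the second enzyme of the glyoxalase pathway, had a log2 fold change of 0.04 (SE 0.0385).

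Ciart, Dbp and Nr1d1, clock genes of 1 phase, were lower in Igf2enh-/- cortex. In the daily clock, the activators BMAL1 (Arntl) and CLOCK bind E-boxes and switch on Per, Nr1d1, Dbp and Ciart. The products of Per, Nr1d1 and Ciart then repress the activators, so both sets of transcripts run in opposite phase. All 12 genes of the Dbp phase lay below 0, 3 were called lower beside 0.251% of all genes, and the median was -0.35. Ciart, a repressor of the clock activators, was at 14.1, 19.5 and 25.6 CPM in wild-type and 6.65, 8.20 and 9.77 CPM in Igf2enh-/- libraries. The groups did not overlap (log2 fold change -1.24, SE 0.127, adjusted p = 0.000467).

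Dbp, a transcription factor of clock output, was at 82.5, 103 and 119 CPM in wild-type and 45.2, 55.7 and 71.9 CPM in Igf2enh-/- libraries. The groups were again separate (log2 fold change -0.80, SE 0.104, adjusted p = 0.00449). Nr1d1, which encodes the heme receptor REV-ERB alpha, was at 147, 160 and 182 CPM against 106, 121 and 152 CPM, with 1 or more libraries overlapping (log2 fold change -0.39, SE 0.0713, adjusted p = 0.0313). The call of Nr1d1 was lost without library 3, 4, 6, 8, 9, 10 or 12 and with the meningeal covariate (adjusted p = 0.181). Its relative Nr1d2 had a log2 fold change of -0.29 and missed the threshold (adjusted p = 0.0514). In the opposite phase none of 8 genes was called. Arntl itself was at 38.7, 42.8 and 50.2 CPM in wild-type and 45.6, 51.9 and 60.6 CPM in Igf2enh-/- libraries, which overlap (log2 fold change 0.27, SE 0.0622, adjusted p = 0.0741). The labels give a light cycle but no time of day at which tissue was taken.

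The promoter of Ciart is shown because its E-boxes are the letters the clock activators bind. It runs from 250 bases before to 50 bases after the RefSeq start site, at chr3:95882179-95882478 of GRCm38.p6 on the minus strand, and capitals mark the palindrome CACGTG.
Ciart: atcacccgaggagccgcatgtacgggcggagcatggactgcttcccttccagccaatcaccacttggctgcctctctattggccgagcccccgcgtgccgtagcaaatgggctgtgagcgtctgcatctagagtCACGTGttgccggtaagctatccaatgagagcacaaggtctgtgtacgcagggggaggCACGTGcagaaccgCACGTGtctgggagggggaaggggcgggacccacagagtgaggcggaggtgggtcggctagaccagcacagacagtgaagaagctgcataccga
The 3 matches start 116, 58 and 44 bases before the start site. CACGTG occurred in 7.15% of the 32851 promoters of the table and in 5 of the 12 promoters of the Dbp phase list, those of Ciart, Per1, Tef and Bhlhe41. It was also in 20.6% of promoters of genes called lower and 25% of those of genes called higher, Hsph1 and Calr among them. A match describes the letters in this window and is not a bound site.

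Rbm3 was lower, and 5 chaperone genes were called higher by small amounts. Rbm3 encodes an RNA-binding protein that is induced when body or culture temperature falls, while heat shock chaperones are induced when it rises. Rbm3 (chrX:7716101-7723006) was at 45.5, 56.9 and 64.6 CPM in wild-type and 33.0, 38.7 and 42.3 CPM in Igf2enh-/- libraries. No library of a genotype reached the other group (log2 fold change -0.54, SE 0.0541, adjusted p = 0.000467). Cirbp, the other cold-inducible RNA-binding gene, had a log2 fold change of -0.14 and was not called (adjusted p = 0.344).

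Of 35 cytosolic heat shock chaperones tested, 28 lay above 0 and 3 were called higher beside 0.129% of all genes, with a median of 0.05 and 50.4% of all genes above 0. Hsph1, a nucleotide exchange factor of HSP70, was at 315, 329 and 349 CPM in wild-type and 369, 381 and 398 CPM in Igf2enh-/- libraries. The groups were separate (log2 fold change 0.22, SE 0.0299, adjusted p = 0.00807). Stip1, which passes clients from HSP70 to HSP90, rose by a log2 fold change of 0.19 (SE 0.0290, adjusted p = 0.0140). Hspa8, the constitutive HSP70, rose by 0.18 (SE 0.0318, adjusted p = 0.0301). Ahsa1, an activator of HSP90, had 0.12 and was not called (adjusted p = 0.165). With the meningeal covariate the calls of Hsph1, Stip1 and Hspa8 were lost (adjusted p = 0.0584, 0.0949 and 0.181). Stip1 also lost its call without library 9 or 10, and Hspa8 without library 4, 6, 8, 9, 10, 11 or 12.

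Of 20 chaperones of the endoplasmic reticulum, 16 lay above 0 and 2 were called higher, with a median of 0.12, beside 50.4% above 0 and 0.129% called higher over all genes. Calr, the calcium-binding chaperone of glycoproteins, was at 322, 349 and 360 CPM in wild-type and 381, 399 and 420 CPM in Igf2enh-/- libraries, apart from each other (log2 fold change 0.21, SE 0.0351, adjusted p = 0.0270). Its partner Pdia3, a disulfide isomerase, rose by 0.16 (SE 0.0276, adjusted p = 0.0285). Pdia6 had 0.19 and Hsp90b1 had 0.16, with adjusted p of 0.0508 and 0.0940. The calls of Calr and Pdia3 were lost without library 4, 6, 8, 9, 10 or 12 and with the meningeal covariate (adjusted p = 0.163 and 0.181).

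The promoters of Hsph1 and Calr are shown for the stress elements they hold. Both are on the minus strand of GRCm38.p6, from RefSeq, at chr5:149636287-149636586 and chr8:84846882-84847181. Capitals mark a heat shock element in Hsph1 (TTC, 2 free bases, GAA, 2 free bases, TTC) and an ER stress element in Calr (CCAAT, 9 free bases, CCACG), which is read there on the opposite strand.
Hsph1: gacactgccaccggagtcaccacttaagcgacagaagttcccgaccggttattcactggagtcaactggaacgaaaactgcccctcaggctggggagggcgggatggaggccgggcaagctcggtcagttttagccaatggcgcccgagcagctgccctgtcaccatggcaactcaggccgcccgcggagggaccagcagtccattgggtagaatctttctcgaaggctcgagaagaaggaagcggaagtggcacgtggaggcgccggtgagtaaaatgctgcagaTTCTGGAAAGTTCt
Calr: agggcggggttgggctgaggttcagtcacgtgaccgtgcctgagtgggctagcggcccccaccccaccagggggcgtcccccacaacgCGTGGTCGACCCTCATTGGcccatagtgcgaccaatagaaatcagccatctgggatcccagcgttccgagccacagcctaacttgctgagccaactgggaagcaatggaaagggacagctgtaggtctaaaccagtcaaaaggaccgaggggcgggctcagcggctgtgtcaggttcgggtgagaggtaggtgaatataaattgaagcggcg
Searched on both strands, the heat shock element occurred in 0.603% of all promoters and in 7 of 42 promoters of cytosolic chaperone genes, where a gene can have more than 1 promoter. The ER stress element occurred in 0.119% of all promoters and in 7 of 17 promoters of ER chaperone genes, among them Canx, Hspa5 and Hsp90b1. Of 20 promoters of genes called higher, 2 held the heat shock element and 1 the ER stress element. Hsph1 and Calr were the only genes called higher found with either, so these promoters do not stand for the other called chaperones.

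**Figure D3:**
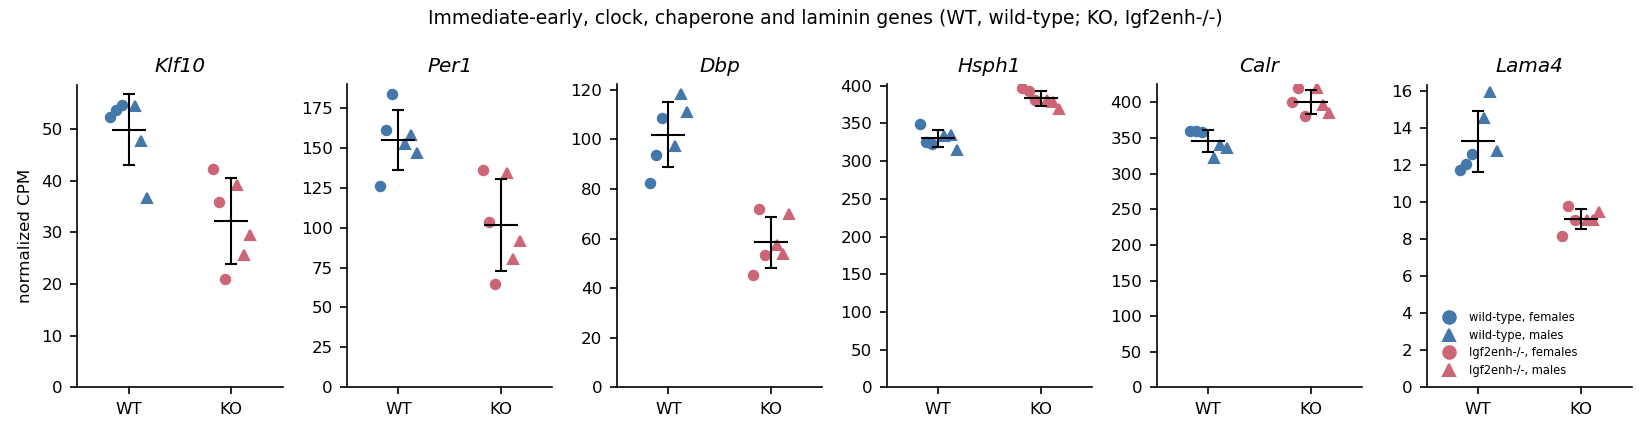
TMM-normalized CPM (y axis) of Klf10, Per1, Dbp, Hsph1, Calr and Lama4 in wild-type (WT) and Igf2enh-/- (KO) libraries (x axis), with circles for females, triangles for males, and bars for the mean ± SD of 6 libraries. Dbp, Hsph1, Calr and Lama4 show no overlap between genotypes, and Klf10 and Per1 overlap.

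Immediate-early genes, which neurons transcribe within minutes of activity, were low in some Igf2enh-/- libraries. Of 33 tested, 31 lay below 0 with a median of -0.41, and none was called, beside 0.380% of all genes. Before adjustment, 20 had p under 0.05 in edgeR, all of them lower, which is 60.6% of the list beside 13.5% of all genes. The mean of the list, centred on the 12 libraries, ran from 0.05 to 0.48 log2 units in wild-type and from -0.82 to 0.48 in Igf2enh-/- libraries, so the Igf2enh-/- libraries were the more spread, with library 5 lowest and library 1 highest. Klf10, a zinc finger transcription factor, was at 36.7, 52.9 and 54.6 CPM in wild-type and 20.9, 32.7 and 42.2 CPM in Igf2enh-/- libraries (log2 fold change -0.63, SE 0.145, adjusted p = 0.0741). Per1, which belongs to this list and to the clock list, was at 126, 155 and 184 CPM against 65.0, 97.5 and 136 CPM, with overlap (log2 fold change -0.60, SE 0.155, adjusted p = 0.106). Tiparp and Ier5 had -0.45 and -0.33 with adjusted p of 0.0741 and 0.134.

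Glucocorticoid-induced genes gave 1 lower call of 20, beside 0.251% of all genes. Klf15, a transcription factor that the hormone receptor induces, was at 16.7, 19.3 and 22.9 CPM in wild-type and 14.2, 15.2 and 16.3 CPM in Igf2enh-/- libraries, without overlap (log2 fold change -0.36, SE 0.0630, adjusted p = 0.0285). The call of Klf15 was lost without library 4, 6, 8, 9, 10, 11 or 12 and with the meningeal covariate (adjusted p = 0.140). Sgk1, a kinase of the same response, had -0.55 (adjusted p = 0.0581), and Ddit4, an inhibitor of mTORC1, had -0.54 (adjusted p = 0.0651). The list lay on both sides of 0, with 9 members above, 11 below and a median of -0.09. Before adjustment, 10 of the lower members and 1 of the higher had p under 0.05 in edgeR. That is 55% of the list, beside 13.5% of all genes tested. Its lowest value, -0.60, was that of Per1. Of 32 NF-kB subunits and TNF-responsive genes, 13 lay above 0, none was called and the median was -0.02.

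**Figure D4:**
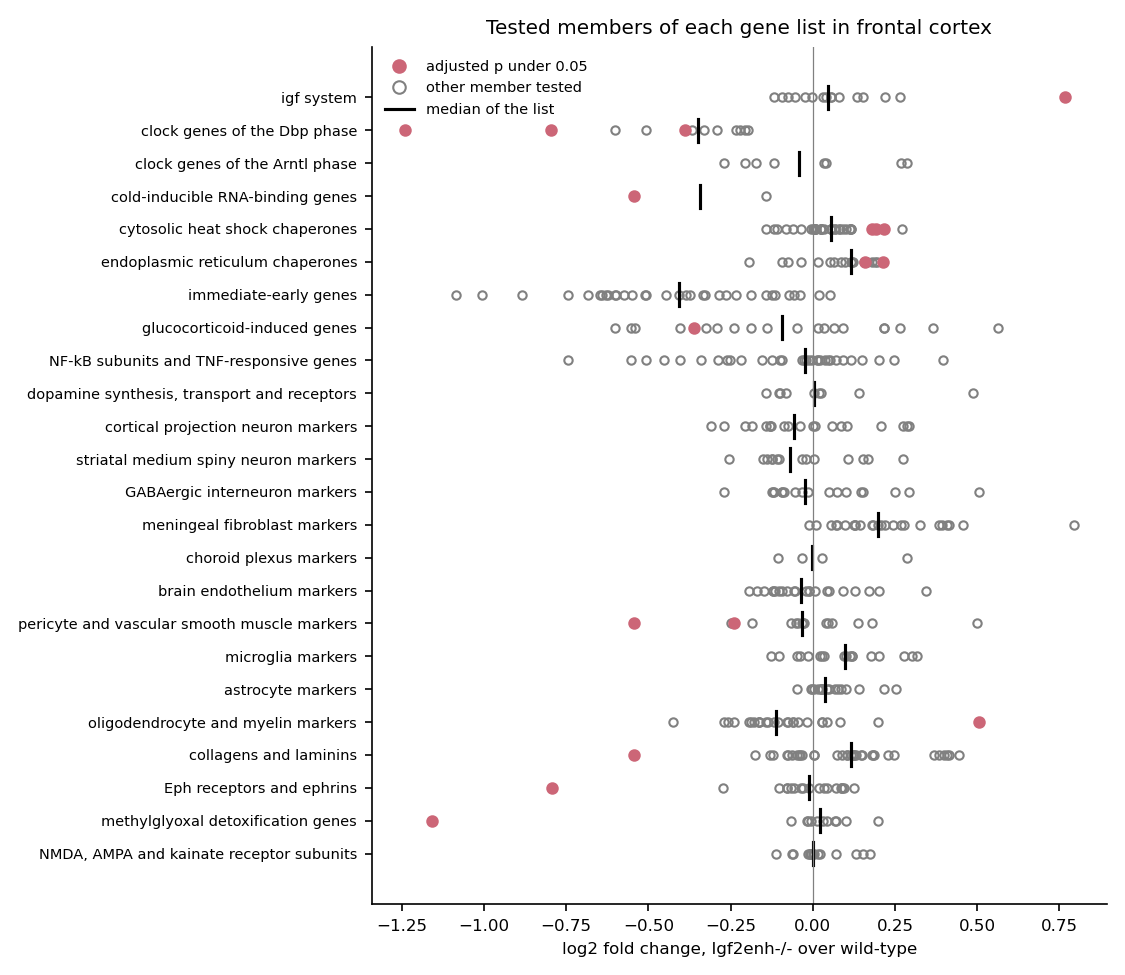
Log2 fold change (Igf2enh-/- over wild-type, x axis) of every tested member of the 24 gene lists (y axis), with filled circles for called genes, open circles for the others and a black line at the median of each list. The Dbp phase clock list and the immediate-early list lie mostly left of 0, with medians of -0.35 and -0.41, and the meningeal list right of it at 0.20.

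Vessel wall genes held 2 lower calls among 16 pericyte and smooth muscle markers, beside 0.251% of all genes. Lama4, the laminin alpha chain of vascular basement membranes, was at 11.7, 12.7 and 15.9 CPM in wild-type and 8.15, 9.04 and 9.80 CPM in Igf2enh-/- libraries. The groups were separate (log2 fold change -0.54, SE 0.0702, adjusted p = 0.00449). Notch3, the Notch receptor of mural cells, was at 21.0 to 25.7 CPM against 18.4 to 21.1 CPM, with slight overlap (log2 fold change -0.24, SE 0.0479, adjusted p = 0.0497), and leaving out any library ended its call. The other markers of the list were spread about 0, with a list median of -0.03, and the endothelial markers had no call of 22 and a median of -0.04.

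Lama4 lies in a stretch of chromosome 10 in which the wild-type males stood apart. From Hs3st5 to Gtf3c6 (chr10:36226620-39977471, NCBIM37), 12 genes were tested, and in 11 of them all 3 wild-type males lay above every other library, which held for 1.56% of all 13936 genes. The ends of the stretch were set by genes that show this pattern, so the count describes it and is no test. The ratio of male to female means ran from 1.19 to 1.66 in wild-type (median 1.48) and from 0.926 to 1.13 in Igf2enh-/- libraries (median 1.01). Marcks, a membrane-bound substrate of protein kinase C, was at 366 to 386 CPM in wild-type males, 235 to 258 CPM in wild-type females, 249 to 268 CPM in Igf2enh-/- females and 236 to 248 CPM in Igf2enh-/- males. The other groups thus shared a range that the wild-type males left. The DNA sequence that these mice carry in this stretch or at Glo1 was not analysed here, so a difference there between mice that is separate from the deletion cannot be told apart from genotype or sex.

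The genotype effect differed between the sexes for 3 of 13936 genes (0.0215%), Marcks, Hdac2 and Fyn, all in this stretch. For Marcks the male minus female difference in log2 fold change was -0.68 (SE 0.0669, adjusted p = 0.00106 in edgeR). For Hdac2, a histone deacetylase, it was -0.68 (SE 0.0686, adjusted p = 0.00106), and for Fyn, a Src family kinase, it was -0.50 (SE 0.0617, adjusted p = 0.00772). None of the 3 was called for genotype over both sexes. Lama4 differs from these genes in that Igf2enh-/- females were also below wild-type females, with log2 fold changes of -0.43 in females and -0.65 in males. None of the 53 genes called for genotype was called for the sex term.

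**Figure D5:**
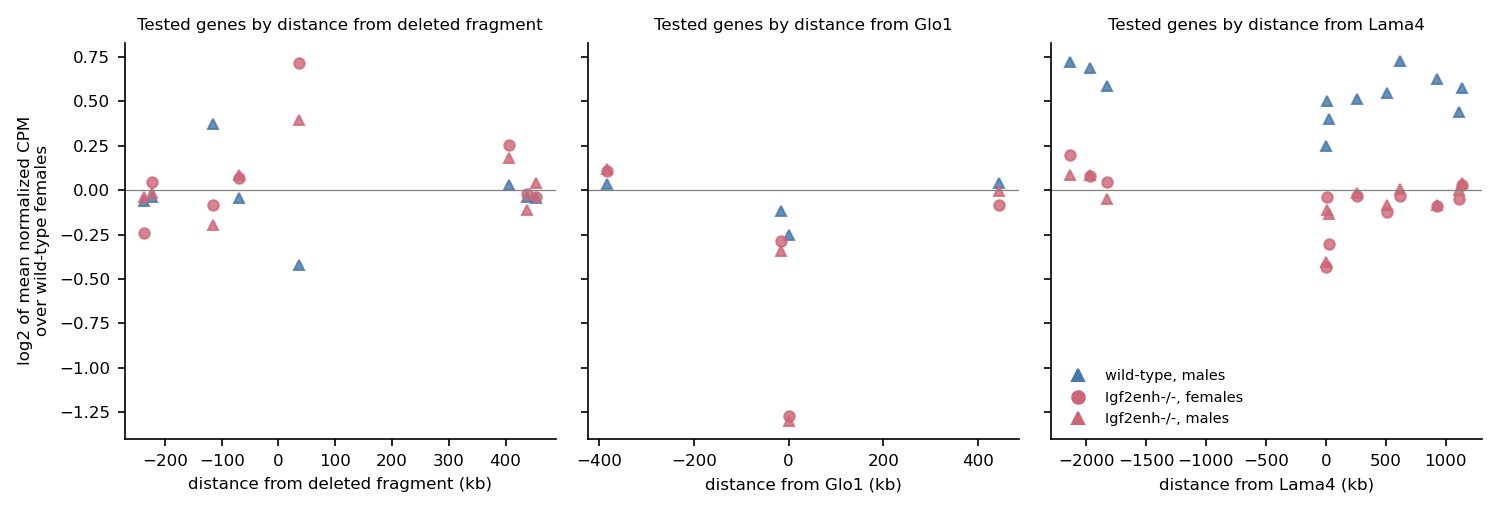
Log2 of the mean normalized CPM over that of wild-type females (y axis) for each gene tested near the deleted fragment, near Glo1 and from Hs3st5 to Gtf3c6, against the distance from the fragment, from Glo1 or from Lama4 (x axis, kb). Blue triangles are wild-type males, red triangles Igf2enh-/- males and red circles Igf2enh-/- females, and wild-type males lie above 0 for each gene of the right panel.

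The other called genes are given by what each is known to do, an ordering made after the calls were seen and not tested as groups. Of these, only Epha8 and ENSMUSG00000096768 were called whichever library was left out. Of the 12 such fits, Sec14l1 was called in 11 and Abca8a in 10. Chrm1 and Tob2 were called in 2, and Tspan13, Fubp3 and Fam228a in 1. Epha8, an ephrin receptor, was at 10.9, 14.4 and 16.7 CPM in wild-type and 6.85, 7.86 and 9.73 CPM in Igf2enh-/- libraries, and was the only call among 19 Eph receptors and ephrins (log2 fold change -0.79, SE 0.112, adjusted p = 0.00866). Chrm1, the M1 muscarinic receptor, fell by 0.17 on the log2 scale, Kcnh4, a potassium channel, by 0.44, and Itpka, an inositol trisphosphate kinase of dendritic spines, by 0.24. Daglb, which makes the endocannabinoid 2-arachidonoylglycerol, fell by 0.24. The kinase gene Pim3 fell by 0.46, the small GTPase gene Arl4d by 0.75, and Sh2b2, an adaptor of the insulin receptor, by 0.41. Vasn, a membrane protein that binds TGF-beta, fell by 0.55.

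Insm1, a zinc finger factor of neuroendocrine cells, was at 8.46, 9.08 and 11.4 CPM in wild-type and 4.56, 6.57 and 7.54 CPM in Igf2enh-/- libraries, without overlap (log2 fold change -0.58, SE 0.116, adjusted p = 0.0478). Its call was lost in 8 of the 12 fits that left out a library. Tle3, a Groucho corepressor, fell by 0.24, Erf, an ETS repressor, by 0.30, Zfp281 by 0.21, Tob2 by 0.40, and Jade1, a subunit of a histone acetyltransferase complex, by 0.23. Mir22hg, the host transcript of miR-22, fell by 0.23.

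Abca8a, a lipid transporter on the oligodendrocyte list, was at 4.55, 5.31 and 5.48 CPM in wild-type and 5.91, 7.35 and 9.00 CPM in Igf2enh-/- libraries (log2 fold change 0.50, SE 0.0758, adjusted p = 0.0134), while 20 of the 26 genes tested on that list lay below 0. Plin3, a coat protein of lipid droplets, rose by 0.41, and Rmdn3, which tethers mitochondria to the endoplasmic reticulum, by 0.18. Lman2l, a cargo lectin, rose by 0.28, Resp18, a protein of secretory granules, by 0.31, and Ctsz, a lysosomal protease, by 0.27. Glipr2, associated with the Golgi, rose by 0.56.

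Tspan13, Tmem256, Cfdp1, Fam228a and 5330416C01Rik rose, by 0.13 to 0.72 on the log2 scale. Sec14l1, Rnf144b, Fam78a, Wrn, Fubp3, Csrnp2, Ccdc92b, Dbndd2 and Itm2a fell. The identifier ENSMUSG00000096768, which has no symbol in the tables used, was at 9.17, 10.4 and 12.5 CPM in wild-type and 3.20, 4.96 and 7.71 CPM in Igf2enh-/- libraries (log2 fold change -1.10, SE 0.142, adjusted p = 0.00449).

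Markers of the resident cell types gave few calls. No cortical projection neuron marker of 20, no interneuron marker of 18, no astrocyte marker of 18 and no microglia marker of 18 was called, with medians of -0.06, -0.02, 0.04 and 0.10. In the same order, 8, 8, 15 and 13 of these markers lay above 0, beside 50.4% of all genes tested. The astrocyte and microglia lists thus also lay mostly above 0. The most abundant projection neuron marker, Camk2a, belongs to a list whose sum ran from 8708 to 9406 CPM in wild-type and from 8662 to 8958 CPM in Igf2enh-/- libraries. The myelin list summed to 2382 to 2962 CPM in wild-type and 1596 to 2971 CPM in Igf2enh-/- libraries, lowest in library 1. Of 14 medium spiny neuron markers and 4 choroid plexus markers tested none was called, and of 35 collagens and laminins Lama4 was the only one called, with 24 above 0 and a median of 0.11. Of 9 dopamine genes and 15 NMDA, AMPA and kainate receptor subunits tested none was called, with medians of 0.0028 and 0.00063. Drd5, a dopamine receptor, had the largest change among the 9 dopamine genes tested, which leave out Th, at 0.49 (SE 0.171, adjusted p = 0.234).

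The same deletion was also measured in striatum, in 7 wild-type and 8 Igf2enh-/- libraries, which may share mice with the cortex libraries. With both regions in the model, the genotype effect differed between regions for 0 of 13414 genes (0.00%) in edgeR's quasi-likelihood test, with 405 genes under 0.05 before adjustment. DESeq2 and the likelihood ratio test also called 0, with 380 and 325 before adjustment. For Glo1 the striatum minus cortex difference was -0.05 (SE 0.0892), for Ciart 0.06 (SE 0.184), for Rbm3 0.01 (SE 0.0879) and for Igf2 0.14 (SE 0.389). The standard error for Igf2 is wide, so a modest difference between regions was not detectable for it. Of the 52 cortex calls in this fit, 8 had an unadjusted p under 0.05 for the region term, beside 405 of all 13414 genes. These 52 were chosen for their difference in cortex, so the count of 8 is no test of the regions.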

How the data were processed

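Gene counts were deposited by the authors as 1 table per region. Per the labels and the study's methods, total RNA was depleted of ribosomal RNA, sequenced as 75-base single-end reads, trimmed with Trim Galore 0.5.0 and aligned with STAR to GRCm38 with GENCODE annotation. The strand setting of the counting is not given in the sources used here, so antisense and overlapping genes such as Igf2os cannot be told apart from their partners. Totals of 24929068 to 30979248 counts per library set the precision of low genes. Counts were tested with edgeR 4.0.16 in R 4.3.3, with TMM factors, genes at 1 CPM or more in every library, and genotype and sex as terms. Other models held genotype by sex (12 libraries) and genotype by region with sex (27 libraries). The fits were repeated with DESeq2 1.42.0, with limma 3.58.1 (voom), with the likelihood ratio test of edgeR, and with other scalings and filters, no sex term, a meningeal covariate and leaving out each library. CPM values are counts over the TMM-scaled total, and list means use log2(CPM + 0.5).

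Of 52636 identifiers, 32688 were matched to the NCBIM37 annotation. Named were the 4 marker genes, every gene called, up to 4 genes of smallest p in each of 24 lists, genes called in the interactions, and tested genes near the deletion, near Glo1 and in the chromosome 10 stretch. Hagh, Hspa5, Canx, Tef, Bhlhe41, Ttr, Ins2, H19, Th, Dnah8, Glp1r and Umodl1 were added for context after their values were seen. Members and lists were chosen with earlier results of these data known. When 200 genes of a simulated table were given a log2 change of 0.8, 97.5% of these were recovered for genotype among 13936 genes, 78.5% for genotype by sex and 89% for genotype by region. Unchanged genes called numbered 10, 13 and 7. The genes called for genotype in the data had median log2 fold changes of 0.26 (higher) and -0.30 (lower), and recovery of such smaller changes was not simulated. The simulated counts were drawn independently, with no library set apart.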

Additional observations from a re-analysis of the deposited data

Results flagged for a closer look

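Of 292 groups of 6 libraries, 2 for each gene of the naming rule, 18 held a library far from the other 5 of its genotype, by the gap to its nearest neighbour over the group's range. Chance flags about 1 in 20. Library 1, an Igf2enh-/- female, was the library in 10 of the 18. It was high for Resp18 (gap 0.718 of the range), Gjb6 (0.809), Aldh9a1 (0.770), Acta2 (0.785) and Hs3st5 (0.842), and low for Kcnh4 (0.635), Enpp2 (0.722), Qdpr (0.632), Gclc (0.755) and Opalin (0.667). Among Igf2enh-/- libraries, library 9 was low for Mir22hg (0.639) and library 5 high for Igfbp2 (0.643). Among wild-type libraries, library 4 was high for Sh2b2 (0.660), library 2 high for Cab39l (0.657), library 8 low for Maob (0.634) and Tssc4 (0.734), library 12 low for Klf10 (0.660) and library 10 low for Mrpl23 (0.626).

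The genotype effect differed between the sexes for Marcks, Hdac2 and Fyn, with male minus female differences of -0.68, -0.68 and -0.50 on the log2 scale in edgeR.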

How the results depend on the processing

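The count of 53 genes called for genotype was 232 by the likelihood ratio test, 242 by DESeq2, 459 with no filter and 8 with the meningeal covariate. It was 8 to 96 when a library was left out. It fell to 10 without library 4, 11 without 6, 15 without 8, 10 without 9, 8 without 10, 32 without 11 and 17 without 12, and rose to 96 without 1 and 84 without 7. The other settings gave 44 to 70. All 53 genes were among the calls of limma-voom and DESeq2, 8 were called whichever library was left out, and no called gene changed sign in any of 1113 refits. The refits reuse the libraries on which these genes were called, so the constant sign is no independent support. Among other named genes, Cab39l with the covariate (-0.0011), Trpm3 without library 3 (range without a library -0.123 to 0.022) and Tssc4 without library 8 (range -0.0046 to 0.0463) changed sign. The 3 genes called by sex became 12 by the likelihood ratio test, 9 by DESeq2, 310 with no filter and 2 to 5 without a library, where the call of Fyn was lost without library 6 and 5 genes were called without 5 or 9. The region count stayed at 0 under its 6 alternatives. The Dbp phase list had 5 members called with edgeR's own filter. The cause of these shifts was not tested. No paired analysis was possible because each library has a number of its own.

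Without the sex term Igf2 kept its direction and missed the threshold (0.76, adjusted p = 0.0627). Genes under 1 CPM in any library were outside the test, and a difference in H19, under the floor of 3 counts, was not detectable at this depth.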
